A study of Mus musculus with 7 samples.

Results

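Binding of the clock factors BMAL1 and REV-ERBα and of RNA polymerase II (RNAP2) was examined at 8 mouse genes of muscle protein breakdown. These were the MuRF family *Trim63*, *Trim55* and *Trim54*, the F-box genes *Fbxo32* and *Fbxo30*, and the forkhead genes *Foxo1*, *Foxo3* and *Foxo4*. They are 8 of the 21938 protein-coding genes of the GENCODE M21 annotation (mm10, GRCm38) outside the mitochondrial chromosome. The genes were listed by name, and every ChIP-seq peak that overlapped a gene body, or came within 10 kb of an annotated transcription start site (TSS) of the gene, was taken. This gave 146 of the 527912 peaks in the 6 deposited lists.

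Muscle loses mass when ubiquitin ligases mark its contractile and regulatory proteins for the proteasome. MuRF1, the product of *Trim63*, is a RING-type ligase of the sarcomere, whereas atrogin-1, the product of *Fbxo32*, is the substrate-binding F-box subunit of a cullin-based ligase. Both are the usual transcript markers of atrophy and are known targets of FOXO factors, which AKT holds in the cytoplasm when insulin or growth factors are present. BMAL1 activates transcription with its partner CLOCK from E-boxes (CACGTG), and REV-ERBα is a nuclear receptor that represses transcription from AGGTCA-type sites. The study asked where the muscle clock binds genes of metabolism and protein turnover.

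ChIP-seq, in which DNA fragments recovered with an antibody are sequenced, was performed on gastrocnemius muscles of wild-type male C57BL/6J mice, 5 months old, kept in equal hours of light and dark on standard chow. BMAL1 and RNAP2 were mapped at Zeitgeber time (ZT, hours after lights on) 4 and REV-ERBα at ZT 8, with 2 replicates each, and input DNA was sequenced as control, of which the labels describe 1 library, from ZT 4. REV-ERBα was precipitated with a mixture of 2 antibodies. Each factor was mapped at 1 time only and in no knockout muscle, so that factor and time cannot be told apart and the lists hold no background measured without the factor. The tissue was whole frozen muscle, and the cell type from which a bound fragment came cannot be told from the lists.

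The lists of replicates 1 and 2 hold 28881 and 29934 peaks for REV-ERBα, 34737 and 177669 for BMAL1, and 87870 and 168821 for RNAP2. Strength is given below as the −log10 p that the authors' peak caller computed for a peak over input. Genes and peaks were compared within a list. Where a region is ranked by the lower of its 2 values, or searched for motifs at its higher summit, values of both lists are mixed, although the lists differ in length. The reads under each peak are unknown, and no counting interval could be given. RNAP2 had a region in both replicates at 6 of 6 skeletal muscle genes, at 0 of 3 genes each of liver, adipocytes and endothelium, at 1 of 3 leukocyte genes and at 2 of 3 nerve genes.

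All 8 genes carried RNAP2 at their promoters in both replicates, 3 carried a REV-ERBα region present in both, and none carried such a BMAL1 region. A region here is a set of peaks of one factor from both replicates that overlap by at least 1 bp. REV-ERBα regions were found at *Trim63*, *Trim55* and *Fbxo32*, thus at 3 of 8 genes, whereas 4.44% of all protein-coding genes had one in a window built the same way. BMAL1 regions were found at 0 of 8 genes against 6.81% of all genes, and RNAP2 regions at 8 of 8 against 41.1%. Within 1 kb of a TSS, REV-ERBα regions remained at *Trim63* and *Fbxo32*, against 2.0% of all genes, and RNAP2 regions at all 8, against 30.5%. No BMAL1 region lay within 1 kb of a TSS of the 8 genes, and 0.843% of all genes had one. Of the 6701 protein-coding genes whose promoters carried RNAP2 within 1 kb in both replicates, 8.92% had a REV-ERBα region in the window and 5.42% within 1 kb.

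The single lists were much less selective. At least 1 REV-ERBα peak was listed at 5 of the 8 genes in replicate 1 (38.7% of all genes) and at 6 in replicate 2 (40.1%). BMAL1 peaks were listed at 7 genes in replicate 1 (38.2% of all genes) and at 7 in replicate 2 (84.4%), and RNAP2 peaks at all 8 in replicates 1 (76.9%) and 2 (86.5%). The windows of the 8 genes had a median length of 39986.5 bp, against 30206.5 bp for all protein-coding genes. Per 100 kb of window, the genes held 3.17 REV-ERBα peaks in each replicate against 1.21 and 1.28 over the windows of all protein-coding genes. The corresponding BMAL1 densities were 3.66 and 10.01 against 1.41 and 7.79, and those of RNAP2 were 7.08 and 8.54 against 4.12 and 6.99.

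**Figure D1:**
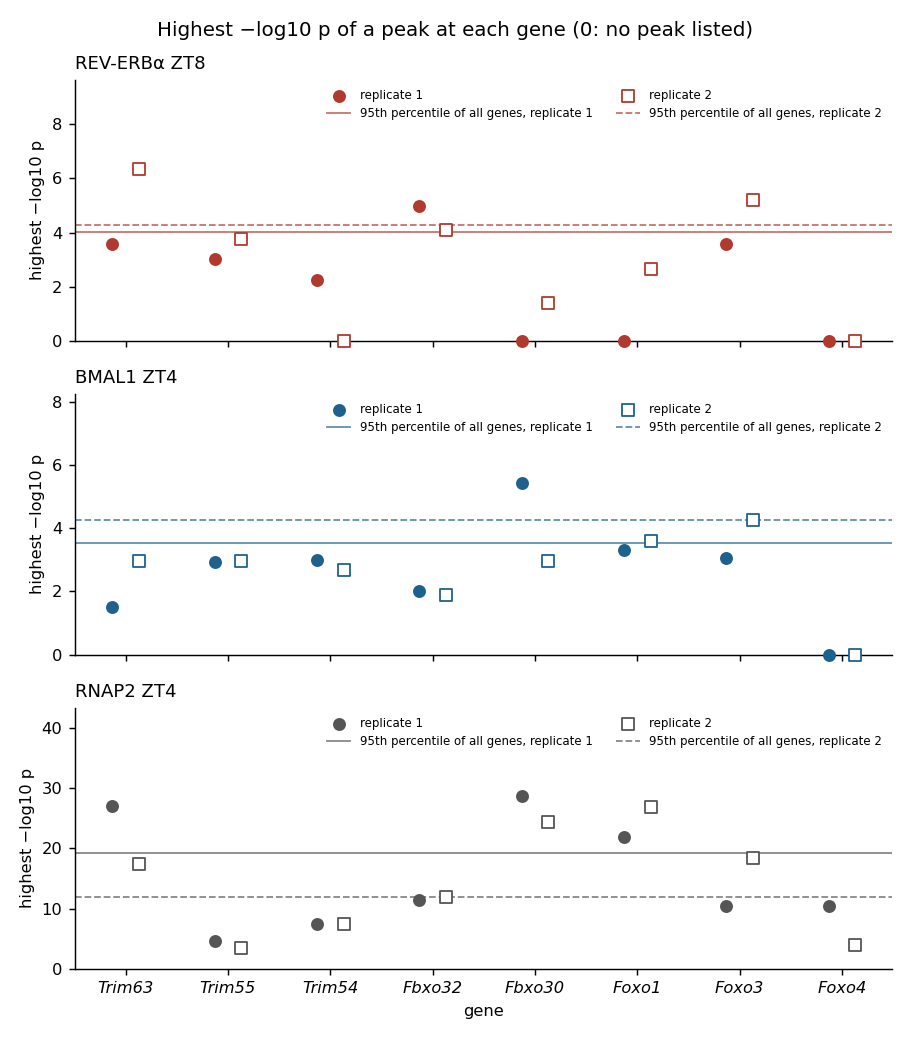
Highest −log10 p of a peak at each of the 8 genes (y axis, no unit; 0 where no peak is listed) for REV-ERBα, BMAL1 and RNAP2, with circles for replicate 1, squares for replicate 2 and lines at the 95th percentile over all protein-coding genes. *Trim63* and *Foxo3* passed the REV-ERBα line in replicate 2 and *Fbxo32* in replicate 1, *Fbxo30* alone passed the BMAL1 line of replicate 1, and *Foxo4* sits at 0 for both clock factors.

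The REV-ERBα region at *Trim63* (ENSMUSG00000028834, chromosome 4, plus strand, TSS at 134315120) covered the promoter. It spanned 134314134 to 134315440, with −log10 p values of 3.57 (replicate 1) and 6.34 (replicate 2). The peak of replicate 2 was 3.71-fold over background and had a −log10 q of 1.91. It was the only REV-ERBα peak at the 8 genes past a q-value of 0.05, which 423 of the 29934 peaks of that list passed. The peak of replicate 1 was weaker, at 2.68-fold, and 1650 peaks of that list (5.71%) had exactly its −log10 p. The summits lay at −741 and −61 bp from the TSS, 680 bp apart, and the peaks overlapped by 212 bp. Distances in the text are to the nearest annotated TSS of the gene, negative upstream. By the lower of its 2 values, the region ranked 357th of 1263 REV-ERBα regions. The highest REV-ERBα value of *Trim63* was above that of 91.5% of all protein-coding genes in replicate 1 and of 98.3% in replicate 2. For *Fbxo32* the shares were 97.7% and 94.6%, and for *Trim55* 84.2% and 90.9%.

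The 250 bases before the *Trim63* start are shown because both REV-ERBα peaks reach into them, with the same stretch of *Trim54* for comparison within the MuRF family. Both are RefSeq promoters on GRCm38.p6, at chr4:134314870-134315119 and chr5:31116362-31116611, on the plus strand. Capitals mark the motifs that were searched for on both strands.
Trim63: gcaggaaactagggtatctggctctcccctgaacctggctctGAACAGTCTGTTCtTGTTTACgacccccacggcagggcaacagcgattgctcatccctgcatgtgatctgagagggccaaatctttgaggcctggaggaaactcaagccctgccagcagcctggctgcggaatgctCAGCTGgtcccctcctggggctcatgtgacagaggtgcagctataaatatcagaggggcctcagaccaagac
Trim54: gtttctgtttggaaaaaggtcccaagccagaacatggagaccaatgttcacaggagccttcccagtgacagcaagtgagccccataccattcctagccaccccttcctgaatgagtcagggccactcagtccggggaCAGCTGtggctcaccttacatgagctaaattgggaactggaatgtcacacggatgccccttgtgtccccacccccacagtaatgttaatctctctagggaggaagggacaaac
In *Trim63* the capitals are, from the 5′ end, a glucocorticoid response element (GRE, GNACANNNTGTNC), a FOXO motif (TGTTTAC) and the E-box variant CAGCTG that myogenic factors favour. The last of these begins at −72 bp, 8 bp from the REV-ERBα summit of replicate 2. The study described the GRE as directly under its REV-ERBα summit. In the lists, the middle of the GRE was 539 bp from the summit of replicate 1 and 141 bp from that of replicate 2. A nuclear receptor motif GGGTCA follows the start at 9 bp, beyond the bases shown. *Trim54* has only CAGCTG, at −113 bp from the RefSeq start. Of 32851 RefSeq promoters of this kind, including 50 bases after the start, 0.475% hold the GRE, 3.65% TGTTTAC, 16.3% CAGCTG and 13.7% GGGTCA.

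Peaks of BMAL1 were also listed at the *Trim63* promoter, at −log10 p values of 1.52 (replicate 1) and 2.40 (replicate 2). They did not overlap each other. Their summits lay 227 bp downstream of another annotated TSS of the gene and −33 bp from the TSS at 134315120. The value of replicate 1 was above only 2.77% of its list, and 40763 peaks (22.9%) of the list of replicate 2 had exactly the value 2.40. Through the REV-ERBα peak of replicate 2, the peaks merged into a site shared by the 4 lists of both clock factors, at 134314134 to 134316227. A site that drew on 3 or more of these lists occurred at 1 of the 8 genes and at 1.62% of all protein-coding genes. When peaks under a −log10 p of 3 were dropped, *Trim63* no longer had such a site.

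At *Fbxo32* (ENSMUSG00000022358, chromosome 15, minus strand, TSS at 58214932), REV-ERBα had 3 regions. The strongest spanned 58177640 to 58179220 in the 3′ untranslated region (UTR), 35974 and 36492 bp from the TSS at its summits, with −log10 p values of 4.96 and 3.18. Its peaks overlapped by 91 bp and their summits were 518 bp apart. A weaker region at 58181027 to 58181604 lay in the last exon, across the coding part and the 3′ UTR, with values of 2.02 and 1.66. The region at the promoter, 58214516 to 58215195, had 1.55 in replicate 1 and 4.09 in replicate 2, with summits at 248 and −122 bp. The promoter value of replicate 1 was above only 3.19% of its list, and the region ranked 1208th of 1263.

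Most REV-ERBα peaks of *Fbxo32* therefore lay away from its promoter. In replicate 1 the list has 5 peaks at the gene, of which 2 were in intron 4 with −log10 p of 3.41 and 4.76. In replicate 2 it has 6, of which 4 had their summits in exon 9, the last exon, with values between 1.66 and 3.18. No BMAL1 or RNAP2 peak overlapped either region at the 3′ end. The nearest TSS to both was that of *Wdyhv1*, which encodes a glutamine amidohydrolase of the N-end rule pathway, 24461 bp from the stronger region. The promoter region overlapped RNAP2 in both replicates but no BMAL1 peak. It also overlaps the antisense transcript *Gm15943*, and ChIP does not tell the strands apart.

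**Figure D2:**
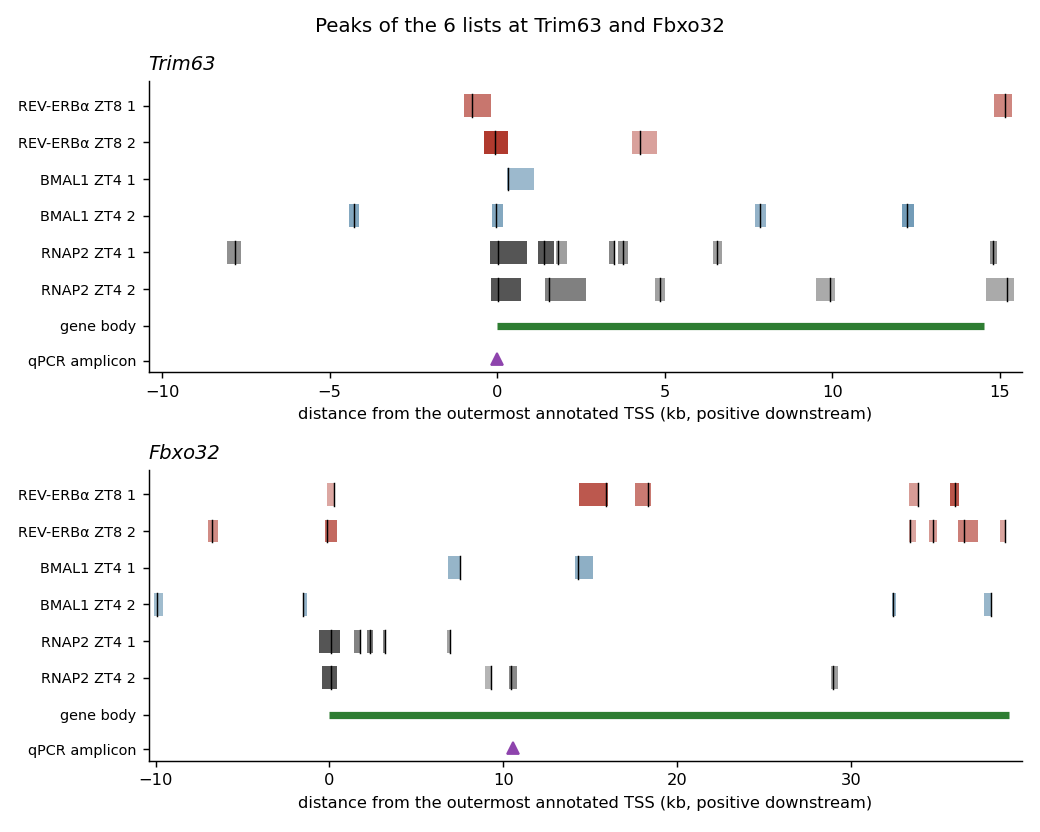
Peaks of the 6 lists at *Trim63* and *Fbxo32* by distance from the outermost TSS (x axis, kb), with darker bars for higher −log10 p, black ticks at summits, a green line for the gene body and a triangle at the ChIP-qPCR amplicon. REV-ERBα peaks meet RNAP2 at both promoters, and at *Fbxo32* further REV-ERBα peaks stand in intron 4 and at the 3′ end, where the strongest region has 4.96 and 3.18.

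*Trim55*, which encodes MuRF2, a sarcomere-associated relative of MuRF1, had the REV-ERBα region with the best matching summits. In the gene (ENSMUSG00000060913, chromosome 3, plus strand), the region spanned 19663118 to 19663562 in intron 4, with −log10 p of 3.02 and 3.75. The summits were 54 bp apart, 18897 and 18843 bp downstream of the nearest TSS. No peak of BMAL1 or RNAP2 overlapped it in any list. The 201 bases centred between the summits are given below, from chr3:19663278-19663478 of GRCm38.p6 on the plus strand, because this is the REV-ERBα region that did not depend on how overlap was defined.
Trim55: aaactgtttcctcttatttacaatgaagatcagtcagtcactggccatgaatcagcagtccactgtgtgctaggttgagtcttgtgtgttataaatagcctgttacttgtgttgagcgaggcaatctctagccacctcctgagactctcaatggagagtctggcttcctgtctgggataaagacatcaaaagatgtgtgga
None of the 6 motifs searched for is in these bases, and no capitals are shown.

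When REV-ERBα summits had to lie no more than 250 bp apart, only *Trim55* remained of the 8 genes, against 3.17% of all protein-coding genes. When a −log10 p of 3 or more was asked of each peak instead, *Trim63*, *Trim55* and *Fbxo32* remained, against 2.47% of all genes. None had a region with a −log10 q of at least 1.3 (a q-value of 0.05) in both lists. Few peaks of the whole lists reached that q, 324 of 28881 in replicate 1 and 423 of 29934 in replicate 2. Chromatin was sheared to fragments of 0.5 to 1 kb per the labels, so that summits closer than this may mark one site or several.

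Of the 5 REV-ERBα regions at the 8 genes, 3 held GGGTCA within 100 bp of the higher summit, at the *Trim63* promoter, the *Fbxo32* promoter and the stronger 3′ region of *Fbxo32*. None held AGGTCA. At the midpoint between the summits of both replicates, 1 of the 5 regions held either motif, and the summits lay 680 bp apart at *Trim63* and 518 bp apart at the stronger 3′ region of *Fbxo32*. By the higher summit, over all 1263 REV-ERBα regions, 8.63% held GGGTCA, 13.1% AGGTCA and 20.4% either. The *Fbxo32* promoter region also held an E-box, CACGTG, which 3.4% of REV-ERBα regions had, although no BMAL1 peak of either list overlapped it. CACGTG was in 2.55% of the BMAL1 regions of both replicates by the same search, and in 7.15% of the RefSeq promoters. The second 3′ region of *Fbxo32* held TGTTTAC, against 2.38% of REV-ERBα regions.

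The study followed up MuRF-1 and Atrogin-1 by ChIP-qPCR. It reported REV-ERBα binding at both loci in control muscle, and a strong loss of this binding in muscle lacking BMAL1. Binding of the corepressors NCoR1 and HDAC3 was reduced at most of the sites it tested. Putting REV-ERBα back into such muscle lowered the transcripts of both genes, per the study. In cultured cells, it also reported that REV-ERBα blocked the joint activation of MuRF-1 promoter reporters by the glucocorticoid receptor and active FOXO3A. The primers were placed on the genome to see what the lists hold there. The MuRF-1 pair, GGGCTCATGTGACAGAGGTG and CCAAACCCACTCGGATCCTC, matched chr4:134315065-134315169, across the *Trim63* TSS. This amplicon of 105 bp lay inside the REV-ERBα peak of replicate 2, the BMAL1 peak of replicate 2 and both RNAP2 peaks, and 135 bp from the REV-ERBα peak of replicate 1. The Atrogin-1 pair, GGTGAATGAACCAGGCCTCA and CTTTTTCTGGGTCGTGCAGC, matched chr15:58204316-58204417, an intron of *Fbxo32*, 10566 bp downstream of the TSS. No REV-ERBα peak covered this amplicon of 102 bp. The nearest ones were 3717 bp away in replicate 1 and 10099 bp away in replicate 2. Only an RNAP2 peak of replicate 2, with a −log10 p of 3.51, overlapped it.

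BMAL1 was represented at these genes by single-replicate peaks. The lists have 15 BMAL1 peaks in replicate 1 and 41 in replicate 2 at the 8 genes, none of which overlapped a peak of the other replicate. None reached a −log10 q of 1.3. Over the whole lists, only 92 of 34737 BMAL1 peaks in replicate 1 and 36 of 177669 in replicate 2 reached it. The highest −log10 p at the 8 genes was 5.42, at the promoter of *Fbxo30* in replicate 1.

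*Fbxo30* encodes MUSA1, an F-box protein that is induced when muscle is denervated. Its BMAL1 peak of replicate 1 was 3.25-fold over background and stood above 99.6% of that list, and the gene's highest value was above that of 99.6% of all protein-coding genes. The summit was at −240 bp from the TSS at 11281330 on chromosome 10 (ENSMUSG00000047648, plus strand). In replicate 2 the nearest BMAL1 peak, with 2.40, did not overlap it. Its summit was 437 bp downstream of another TSS of the gene, at 11281587. REV-ERBα had no peak at *Fbxo30* in replicate 1 and a peak of 1.40 in a coding exon in replicate 2. The 221 bases about the BMAL1 summit, chr10:11280980-11281200 of GRCm38.p6 on the plus strand, are shown because this was the strongest BMAL1 peak of the set, with an E-box and an AGGTCA on the opposite strand in capitals.
Fbxo30: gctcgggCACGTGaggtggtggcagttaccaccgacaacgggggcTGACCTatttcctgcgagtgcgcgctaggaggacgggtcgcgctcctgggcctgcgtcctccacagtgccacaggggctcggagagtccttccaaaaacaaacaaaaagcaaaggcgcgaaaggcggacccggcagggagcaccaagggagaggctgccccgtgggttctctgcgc
The E-box begins at −343 bp from the TSS. Its middle is 100.5 bp from the summit, so that it falls outside the 100 bp used in the other motif searches, whereas AGGTCA falls inside. Of the 34737 BMAL1 peaks of replicate 1, 1.72% held CACGTG and 9.58% held AGGTCA within 100 bp of the summit. Promoters hold both more often. Of the RefSeq promoters, 250 bases before to 50 after the start, 7.15% hold CACGTG and 16.3% AGGTCA. The summit also lies within *4930432B10Rik*, a non-coding RNA transcribed from the same promoter on the other strand, so that the peak cannot be assigned to one of the 2 genes.

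The *Foxo3* gene (ENSMUSG00000048756, chromosome 10, minus strand, outermost TSS at 42276755) had peaks of all 3 factors at a common site upstream. *Foxo3* encodes the forkhead factor FOXO3, an activator of ligase and autophagy genes in muscle. BMAL1 of replicate 1 reached a −log10 p of 3.06 with its summit at −1443 bp, and REV-ERBα of replicate 2 reached 5.20 with its summit at −1302 bp. Neither factor had a peak there in its other replicate. RNAP2 had a region there in both replicates, with 3.20 and 4.22 and summits at −1364 and −1349 bp. Of the BMAL1 peaks of replicate 1, 2.59% overlapped a REV-ERBα peak of replicate 2. The 201 bases about the BMAL1 summit, chr10:42278098-42278298 of GRCm38.p6, are given on the minus strand, with 2 E-boxes and a FOXO motif, read on the other strand, in capitals.
Foxo3: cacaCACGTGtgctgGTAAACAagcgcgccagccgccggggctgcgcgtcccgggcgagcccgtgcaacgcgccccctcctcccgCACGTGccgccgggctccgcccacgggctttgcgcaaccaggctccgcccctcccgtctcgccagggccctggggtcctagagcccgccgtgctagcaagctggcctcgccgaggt
The E-box nearer to the gene begins at −1458 bp and its middle is 12.5 bp from the BMAL1 summit, and the other begins at −1539 bp. Both also lie within the REV-ERBα peak of replicate 2. CACGTG was found within 100 bp of the summit in 1.72% of the 34737 BMAL1 peaks of replicate 1, and 29 peaks (0.0835%) had at least 2 copies. This site was singled out after its values were seen.

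**Figure D3:**
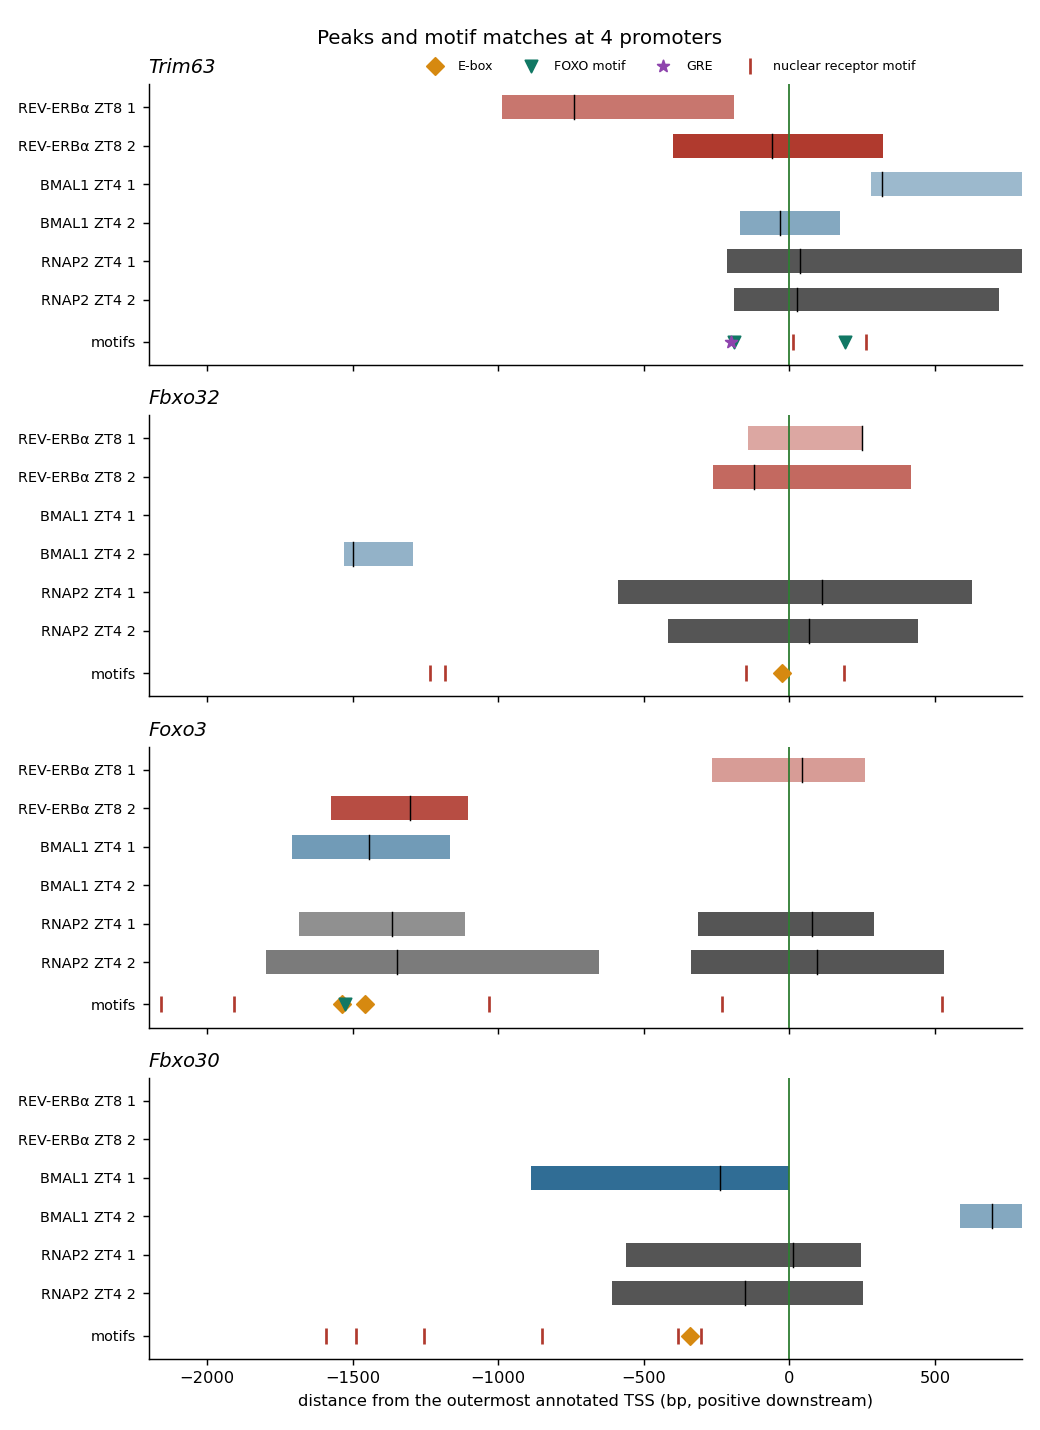
Peaks and motif matches from 2200 bp before to 800 bp after the outermost TSS (x axis, bp) of *Trim63*, *Fbxo32*, *Foxo3* and *Fbxo30*, with bars for peaks, black ticks for summits, diamonds for CACGTG, triangles for TGTTTAC, a star for the GRE and red ticks for AGGTCA or GGGTCA. The pair of E-boxes of *Foxo3* lies under the BMAL1 peak of replicate 1 and the REV-ERBα peak of replicate 2, whereas the E-box of *Fbxo32* has REV-ERBα and RNAP2 peaks but no BMAL1 peak.

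*Foxo1*, whose transcript is known to rise in fasted muscle, had a REV-ERBα peak of 2.64 that replicate 1 lacked, its summit −248 bp from the TSS (ENSMUSG00000044167, chromosome 3, plus strand, TSS at 52268336). That value was above 50.7% of the list, and 5906 peaks (19.7%) had exactly it. The 201 bases about this summit, chr3:52267988-52268188 of GRCm38.p6 on the plus strand, are shown because they hold a match to the FOXO motif, read on the other strand and in capitals, in the promoter of a FOXO gene.
Foxo1: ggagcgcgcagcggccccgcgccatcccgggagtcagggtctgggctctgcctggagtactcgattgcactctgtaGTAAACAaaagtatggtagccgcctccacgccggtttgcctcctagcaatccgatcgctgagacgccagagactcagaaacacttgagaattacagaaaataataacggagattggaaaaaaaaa
The match begins at −272 bp. TGTTTAC was found within 100 bp of the summit in 3.03% of the 29934 REV-ERBα peaks of replicate 2. BMAL1 peaks of *Foxo1* numbered 4 in replicate 1 and 8 in replicate 2, with highest values of 3.31 at −2532 bp and 3.60 in intron 1.

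*Trim54*, which encodes the microtubule-associated MuRF3, had a REV-ERBα peak of 2.23 in replicate 1, 8 bp downstream of a TSS, and none in replicate 2. Its highest BMAL1 values were 2.995 and 2.685, both in introns. *Foxo4*, the X-linked member of the FOXO group, had no REV-ERBα or BMAL1 peak in any list, in a window of 20294 bp that was the shortest of the 8.

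In each replicate the promoters of *Fbxo30*, *Foxo1* and *Trim63* were among the 4 with the highest RNAP2 values, and that of *Trim55* had the lowest. The promoter peak of *Fbxo30* had −log10 p values of 28.6 and 24.3 (replicates 1 and 2). That of *Foxo1* had 21.9 and 26.8, that of *Trim63* 27.0 and 17.3, and that of *Foxo3* 10.5 and 18.5. *Fbxo30* led in replicate 1 and *Foxo1* in replicate 2, and *Foxo3* stood above *Trim63* in replicate 2 only. *Fbxo32* had 11.5 and 11.9, below *Trim63* in each list and above *Foxo3* in replicate 1. *Trim54* had 7.52 and 7.49, *Foxo4* 10.5 and 3.97, and *Trim55* 4.55 and 3.51.

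The promoter peaks of 6 genes passed a −log10 q of 1.3 in both replicates, and 15.0% of all protein-coding genes had a region past it within 1 kb of a TSS. The exceptions were *Trim55* and *Foxo4*, which passed it in replicate 1 only. Summits of the 2 replicates lay 8 to 223 bp apart at the promoters, closest at *Foxo1* and farthest at *Foxo4*. The *Foxo4* summits were upstream of the gene, at −595 and −372 bp. The RNAP2 peak of *Fbxo30* is shared with *4930432B10Rik*, and those of *Fbxo32* and *Foxo1* overlap the antisense transcripts *Gm15943* and *Gm20402*.

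Of the 8 genes, *Trim63* had the largest share of its body under RNAP2 peaks, 17.0% of 14510 bp in replicate 1 and 19.4% in replicate 2. The other genes had between 0 and 4.65% in replicate 1 and between 0 and 5.06% in replicate 2. These shares depend on gene length, and of the 8 genes only *Foxo4* is shorter than *Trim63*. In covered bases, *Trim63* had 2468 and 2808 bp, and *Foxo3*, with a body of 94915 bp, had 2060 and 3405 bp. Some *Trim63* peaks of replicate 1 had −log10 p values of 3.21 and 2.50, which 23.8% and 20.1% of that list had exactly. Beside its promoter, *Trim63* had an RNAP2 region in both replicates at 134316330 to 134317764 with values of 6.55 and 3.97. Another spanned 134329689 to 134330534, just past the 3′ end of the gene, with 3.21 and 1.97. A REV-ERBα peak of replicate 1, with 2.85, overlapped the latter. The 6 skeletal muscle genes used above as markers, among which are *Acta1* and *Ckm*, all had a REV-ERBα region in both replicates and 5 of 6 had a BMAL1 region. Of the 15 markers of other cell types, 1 had a REV-ERBα region and 1 a BMAL1 region. The REV-ERBα region was at the liver gene *Ttr*, with 21.7 and 30.8 and summits 8433 and 8449 bp from the TSS. Neither RNAP2 list has a peak in the window of *Ttr*. The BMAL1 list of replicate 1 has a peak of 12.2 in that window, and that of replicate 2 has none. The REV-ERBα values of *Ttr* are above the 19.6 and 21.2 of *Acta1* and the 20.5 and 27.5 of *Ckm*. *Ttr* was singled out after its values were seen. Whether RNAP2 level has a part in the REV-ERBα values was not tested.

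**Figure D4:**
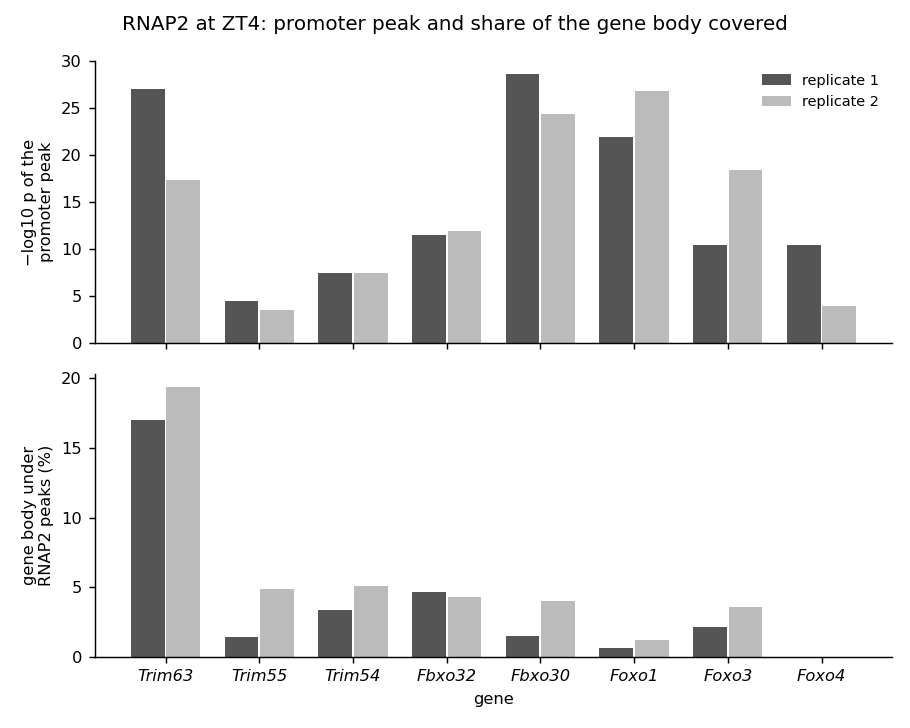
−log10 p of the RNAP2 promoter peak (upper panel) and percent of the gene body under RNAP2 peaks (lower panel) for each gene, with dark bars for replicate 1 and light bars for replicate 2. *Trim63* (14510 bp) reaches 17.0% and 19.4% of its body. *Fbxo30* (16723 bp) and *Foxo1* (84886 bp), with promoter peaks of similar height, stay at or below 4.01%, and the share depends on gene length.

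Other genes of the same pathways were read in the same way. Among 11 other ubiquitin ligases of muscle, REV-ERBα had a region in both replicates at 2, BMAL1 at 1 and RNAP2 at 8. *Stub1*, which encodes the chaperone-associated ligase CHIP, had a REV-ERBα region with 2.88 and 2.64, and a BMAL1 region with 2.01 and 2.40. *Asb2*, an adaptor of a cullin-based ligase, had a REV-ERBα region with 3.02 and 2.59. None of these exceeded the region of *Trim63* in its lower value.

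Among 10 regulators and partners of FOXO factors, REV-ERBα had a region at 3, BMAL1 at 2 and RNAP2 at 7. *Sgk1*, a kinase that phosphorylates FOXO3, had 3.02 and 4.35 for REV-ERBα and 2.48 and 2.40 for BMAL1. *Akt2*, the AKT isoform of insulin action in muscle, had 3.57 and 3.18 for REV-ERBα and no RNAP2 region in both replicates.

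Among 13 other FOXO targets, REV-ERBα had a region at 1, BMAL1 at 2 and RNAP2 at 11. That of REV-ERBα was at *Ddit4*, an inhibitor of mTORC1, with 3.57 and 3.75. BMAL1 had 2.48 and 4.95 at the mitophagy gene *Bnip3* and 1.58 and 1.87 at the stress gene *Gadd45a*. Sites drawing on 3 or more of the clock factor lists occurred at 2, 2 and 1 genes of these pathway lists. All of these are counts beside the shares of all genes given above, and no list was tested.

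**Figure D5:**
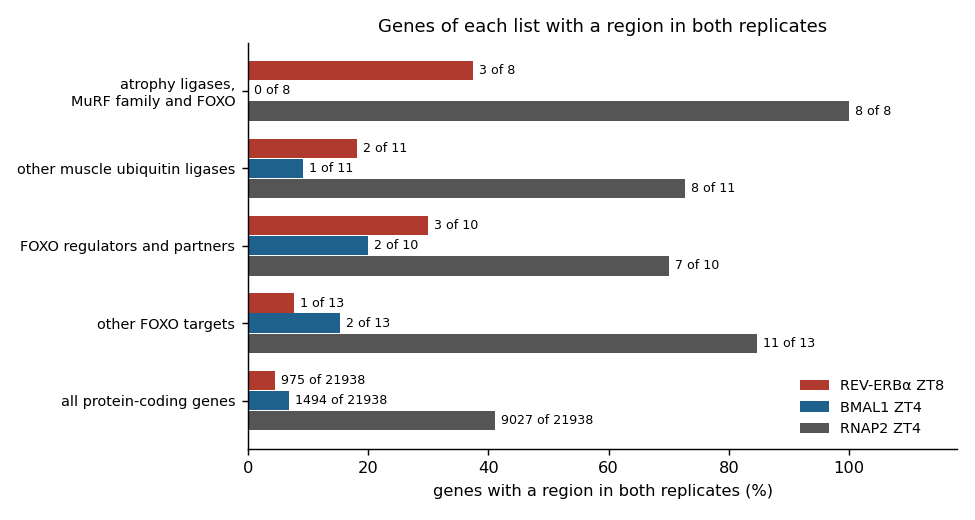
Percent of genes with a REV-ERBα, BMAL1 or RNAP2 region in both replicates (x axis) in the atrophy ligase, MuRF and FOXO genes, in the 3 pathway lists and in all protein-coding genes, with counts beside the bars. The 8 genes have 3, 0 and 8 genes with a region, beside 4.44%, 6.81% and 41.1% of all genes.

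The genes whose pattern over the 6 lists was most like that of *Trim63* included genes of striated muscle. Likeness was measured as the Euclidean distance between the log2(1 + highest −log10 p) values of the 6 lists. *Ldb3*, which encodes a Z-disc protein, was nearest at 0.826, and *Ryr1*, which encodes the calcium release channel of the sarcoplasmic reticulum, was also among the 3 nearest at 0.931. The median distance over all other protein-coding genes was 4.68. The named genes were picked as the closest, so that here and for *Fbxo32* they lie below the median by construction. For *Fbxo32* the nearest genes were the zinc finger gene *Klf13* at 0.509, the Polycomb gene *Bmi1* at 0.564 and the ceramidase gene *Asah2* at 0.625, with a median of 4.00.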

How the data were processed

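ChIP-seq peak lists were available for 2 replicates each of BMAL1 (ZT 4), REV-ERBα (ZT 8) and RNAP2 (ZT 4). The authors aligned reads to mm10 with BWA 7.12, discarded PCR duplicates and reads of low mapping quality, brought a factor's replicates to like depth, and called peaks per sample over input with MACS2 2.1.1 (p-value cutoff 0.05). The deposited fold enrichment is signal over local background at the summit, and the deposited −log10 p and −log10 q are those of the authors' MACS2 run. The deposited score is 10 times the −log10 p and was not used. Per the file contents, reads and read depth are not part of the lists.

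Genes and TSSs came from GENCODE M21, and sequences from RefSeq GRCm38.p6, the same build. Windows were the gene body and 10 kb about each TSS, and regions were peaks of both replicates overlapping by at least 1 bp. The 6 motifs were matched exactly on either strand, up to 100 bp from the summit of the replicate with the higher −log10 p. RefSeq promoters matched 5 of the 8 genes, and *Fbxo32*, *Trim55* and *Foxo4* had no entry. Named genes were the 8 genes, the nearest other gene of a region, pathway genes with a REV-ERBα or BMAL1 region (at most 4 a list) and the 3 nearest patterns of *Trim63* and *Fbxo32*. Of these, 2 genes are not reported here. Members and lists were chosen with earlier results of these data known. With 2 lists a factor, an exact permutation test cannot give a p under 0.33, and no test was made. Replicates are separate samples per the labels and biological replicates per the study, and how many animals each drew on is not given in the sources used here. Alternatives were stricter thresholds, equal list lengths, other overlap rules, windows and summit flanks, and leaving out each replicate. The code was tested on simulated peaks. Analyses used Python 3.11.15, numpy 2.4.6, pysam 0.24.0 and matplotlib 3.10.9.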

Additional observations from a re-analysis of the deposited data

How the results depend on the processing

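No paired analysis was possible because the results are counts and values that come from no test. *Trim55* kept its REV-ERBα region under every overlap rule and *p* threshold tried, but not with windows of 10 or 1 kb about the TSS without the gene body, nor at a −log10 q of at least 1.3. At that q, 0 genes had a REV-ERBα region and 0 a site in at least 3 of the 4 lists. With summits no more than 250 bp apart, 1 gene had a REV-ERBα region and 0 had a site, and the site at *Trim63* was also lost (0 genes) at a −log10 p of at least 3, with equal list lengths and with an overlap of 50% of the shorter peak. With either replicate left out, every peak of the other list counted, and 5 to 6 genes had REV-ERBα, 7 to 7 had BMAL1, 8 to 8 had RNAP2 and 0 to 1 had a site, which was lost without REV-ERBα replicate 2. With the midpoint between summits in place of the higher summit, 1 REV-ERBα region held AGGTCA or GGGTCA, the cause of which was not tested. In all, 40 counts stayed within 1.5 times of the reported value and 13 did not. At single genes, no tally is given for leaving out a replicate, since the value then becomes that of the other replicate. Under the other alternatives, and among regions still found, *Fbxo32* alone had a value that moved by more than the spread of its replicates. The strongest REV-ERBα region of *Fbxo32* fell to a lower −log10 p of 1.55 without the gene body and 1.66 with an overlap of 50%. A lost region has no value and was not counted as moved. With an overlap of 50% of the shorter peak, *Trim63* lost its REV-ERBα region, which left 2 genes with one. *Foxo4* lost its RNAP2 region under the same rule, which left 7 genes. Leaving out REV-ERBα replicate 1 gave 6.34 at *Trim63*, leaving out REV-ERBα replicate 2 gave 4.96 at *Fbxo32*, leaving out RNAP2 replicate 2 gave 27.0 at *Trim63* and 10.5 at *Foxo4*, and leaving out RNAP2 replicate 1 gave 18.5 at *Foxo3*. No BMAL1 region in both replicates was found at the 8 genes under any threshold, overlap rule or window tried. Since the main setting already gave 0, only the window of 20 kb about each TSS could have added one. The other settings could only take regions away, and their zeros are among the 40 counts that stayed.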

Other observations

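Some single-replicate peaks at these genes lay together without a region in both replicates. In intron 4 of *Fbxo32*, the REV-ERBα list of replicate 1 has a peak with a −log10 p of 4.76, above 97.5% of its list. The BMAL1 list of replicate 1 has an overlapping peak with 2.01, above only 20.5% of its list, a value that 7174 peaks (20.7%) had. Neither factor had a peak there in replicate 2. In the 3′ UTR of *Foxo3*, the BMAL1 list of replicate 2 has 4 peaks, the highest with 4.25, above 98.6% of its list, whereas replicate 1 has none there. These are values as listed, and no explanation was tested.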
